A study of Rattus norvegicus with 2 samples.

Results

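The cytoskeletal genes described here are those of tubulin, vimentin, the actins, the actin-binding thymosins and the smooth muscle proteins transgelin and beta-tropomyosin. They were read in the hearts of rats on a high-salt and on a low-salt diet. The rule named 10 genes: Tuba1a, Tubb5, Vim, Actb, Actg1, Acta2, Tmsb4x, Tmsb10, Tagln and Tpm2. Every non-control probe set whose platform annotation held one of these symbols was taken, which gave 21 of 8740 probe sets for 10 of 5147 gene symbols on the array. Of these, 12 carried a single symbol and covered 8 genes. The other 9 were annotated to several genes at once, and Tuba1a and Tmsb10 were measured by such probe sets alone, so these readings belong to a group of near-identical transcripts.

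The high-salt heart came from male rats of the Dahl salt-sensitive strain, 17 weeks old and kept on a high-salt diet, with chronic heart failure according to its label. The low-salt heart came from the same strain, sex and age on a low-salt diet, and its label names no disease. Each diet was represented by 1 array of biotin-labelled cRNA, and the labels do not say whether an array held 1 animal or a pool, or which chamber was sampled. The strain carries a susceptibility to salt-induced hypertension on both diets, so the low-salt heart is a control for diet and not for genotype.

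Several filament systems shape a heart cell. Microtubules are polymers of alpha- and beta-tubulin that carry cargo and stiffen the myocyte, vimentin forms the intermediate filaments of fibroblasts, endothelial cells, smooth muscle and leukocytes, and actin builds both the sarcomere and the non-muscle cortex. The thymosins bind actin monomers and hold them back from polymerising. Microtubule density increases in pressure-overloaded myocardium, and smooth muscle actin marks vessel walls and activated fibroblasts, which is why these genes are often read in heart failure.

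Values are deposited intensities on a linear scale, which scaling had already brought to a 2% trimmed mean of 100.2 on both arrays. Negative intensities made up 27.3% of the probe sets of each array, and the 95th percentile of their size, 126.4, served as a noise floor below which readings have no reliable order. With 1 array per diet no test between the diets was possible, and every difference below is one between 2 arrays. As a scale for error, probe sets for a common gene differed in log2 ratio by an SD of 0.22 (231 genes), which holds no variation between animals. Cardiomyocyte markers checked the tissue label: 10 of 11 measured markers reached the noise floor, and their summed intensity was 48325.2 on high salt and 48504.7 on low salt. Because tissue RNA was read in bulk, more cells of a type and more RNA per cell cannot be told apart.

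Every probe set of the 10 genes above the noise floor differed by less than 2-fold between the hearts. The largest differences among them were those of vimentin and alpha-tubulin. Hearts are named by diet below, as on high salt (the failing heart) or on low salt. Of the 21 probe sets, 15 reached the noise floor, each on both arrays, and 6 stayed under it on both. None of the 15 differed by 2-fold or more, whereas 5.22% of all 1955 probe sets that reached the floor did. Their log2 ratios, taken as high over low salt, ran from -0.28 to 0.82 with a median of 0.13, beside a median of -0.04 over all probe sets that reached the floor. At 1.5-fold, 2 of the 15 passed, both higher on high salt, where 8.75% of all probe sets were as much higher. The log2 ratio was smaller in size than 0.22 for 9 of the 15, beside 46.5% of all probe sets. The 9 include probe sets shared by Acta2 and the cardiac actin Actc1. On high salt these read 3976.8 or more, against 378.5 or less for probe sets annotated to Acta2 alone. By gene, Vim, Acta2 and Tmsb4x exceeded 0.22 in size, and Tubb5, Actb and Actg1 did not. Of the 8 genes with a probe set of their own, 6 reached the floor and none passed 2-fold, where 5.43% of 1216 genes did (3.54% higher and 1.89% lower on high salt). Of these 6, Tubb5, Actg1 and Acta2 were read by probe sets whose names mark sequence that may be shared with other genes. Only Vim, Actb and Tmsb4x had a probe set above the floor without such a mark.

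**Figure D1:**
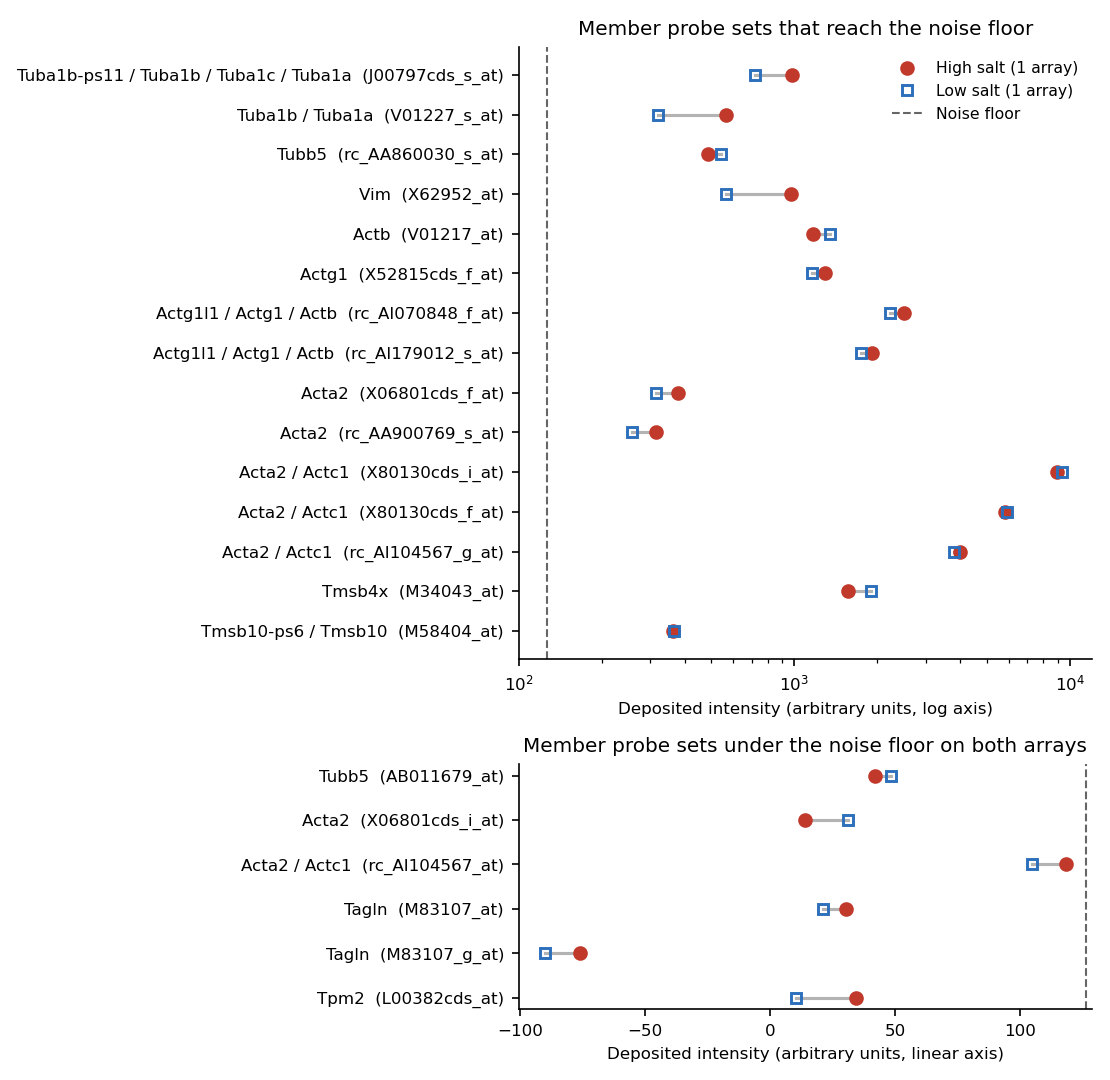
Deposited intensity of each of the 21 member probe sets in the high-salt heart (filled circles) and the low-salt heart (open squares), 1 array each, with probe sets that reach the noise floor of 126.4 above on a log axis and those under it below on a linear axis. The widest gaps above the floor belong to V01227_s_at (Tuba1b and Tuba1a) and X62952_at (Vim), both higher in the high-salt heart.

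Alpha-tubulin, which pairs with beta-tubulin to form the microtubule subunit, read higher on high salt in every probe set of the Tuba1 group above the floor. The probe set shared by Tuba1a and Tuba1b, V01227_s_at, read 566.3 on high salt and 320.6 on low salt. This 1.77-fold difference was the largest of the 15, at rank 97 from the highest of 1955 probe sets. J00797cds_s_at, shared by Tuba1a, Tuba1b, Tuba1c and a Tuba1b pseudogene, read 982.7 on high salt and 722.1 on low salt, a 1.36-fold difference. Tuba1b, a related alpha-tubulin outside the 10 genes, has a probe set of its own, and it read 1665.2 on high salt against 1272.2 on low salt (1.31-fold). The 3 log2 ratios of 0.39, 0.44 and 0.82 all lay above the SD of 0.22. All 3 probe sets are annotated to Tuba1b, alone or with other genes, so they are not readings of separate genes. Scaled to the 9 reference genes, which moved the median of all genes to -0.23, the log2 ratio of V01227_s_at was 0.59. That of J00797cds_s_at was 0.217, just under the SD of 0.223. This scaling lowers each ratio by 0.2271, which also takes the Tuba1b ratio of 0.39 under the SD. A further probe set, rc_AA892333_at for Tuba1b and Tuba1c, stayed under the noise floor at 96.5 on high salt and 14.9 on low salt. V01227_s_at and J00797cds_s_at are each annotated to several alpha-tubulin genes, so they do not show which of those genes differed, and Tuba1a has no reading of its own.

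Beta-tubulin did not follow the same pattern. Tubb5, a widely expressed beta-tubulin, read 485.5 on high salt and 542.1 on low salt in rc_AA860030_s_at, a log2 ratio of -0.16 that is smaller than the SD between probe sets. Its other probe set, AB011679_at, was dim at 41.9 and 48.4 on high and on low salt. Tuba4a, an alpha-tubulin isotype abundant in striated muscle, went the opposite way to the Tuba1 group. It read 289.8 on high salt and 707.6 on low salt, 2.44-fold lower.

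Vimentin, the intermediate filament protein of non-myocyte cells, had the highest ratio of the 6 genes with a probe set annotated to them alone above the floor. Its single probe set, X62952_at, read 975.5 on high salt and 564.8 on low salt, a 1.73-fold difference with a log2 ratio of 0.79. It stood at rank 67 from the highest of 1216 genes. The log2 ratio stayed between 0.56 and 0.84 under the other scalings and floors tried. Vimentin is made by several cell types of the heart, whose markers were therefore read on the same arrays. Of 10 measured fibroblast markers 8 reached the floor, with a summed intensity over the 10 of 4297.7 on high salt and 3522.3 on low salt and none at or below 0. S100a4, a calcium-binding protein of fibroblasts and leukocytes, passed 2-fold at 461.8 on high salt and 99.8 on low salt, the second value being under the floor. The matrix collagens Col1a1 (1169.7 against 823.3) and Col1a2 (292.8 against 193.8) also read higher there, as did the matrix protein Postn (167.3 against 5.0, a bound of at least 1.32-fold), while Col3a1, Pdgfra, Dcn and Lum had ratios below 1. Of 10 measured leukocyte markers 3 reached the floor and the summed intensity was 1259.6 on high salt and 1603.9 on low salt, with Coro1a below 0. Lyz2, the lysozyme of macrophages, was 3.52-fold higher and Cd74, an antigen presentation chaperone, 2.26-fold lower. Of 6 endothelial markers 1 reached the floor, with sums of 395.6 and 363.5 on high and on low salt and Icam2 below 0. The part of these cell types in the vimentin reading was not tested.

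The non-muscle actins, beta-actin and gamma-actin, form the cortex and stress fibres and are widely used as reference genes. Actb read 1169.5 on high salt and 1347.1 on low salt in V01217_at, a log2 ratio of -0.20. Actg1 read 1291.8 on high salt and 1154.7 on low salt in X52815cds_f_at, a log2 ratio of 0.16. A pair of probe sets shared by both genes and Actg1l1 had log2 ratios of 0.16 (2488.5 against 2229.2) and 0.13 (1904.3 against 1743.5). All 4 differences were smaller than the SD of 0.22, and the direction was not shared. With the arrays scaled to 9 reference genes that include no actin, the Actg1 ratio and both shared ratios turned negative, at -0.07, -0.07 and -0.10, and the Actb ratio became -0.43.

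The array also carries beta-actin control probe sets along the transcript, which lie outside the 21. The 5′ control read 1659.8 on high salt and 1492.3 on low salt, the middle control 1011.2 and 1004.6, and the 3′ control 1919.4 and 1646.4. Their log2 ratios of 0.15, 0.01 and 0.22 put the control for Actb at or above 0, where V01217_at lay below it. The ratio of 3′ to 5′ signal, a measure of RNA and cDNA integrity, was 1.16 on high salt and 1.10 on low salt for beta-actin, and 1.30 and 1.22 for Gapdh. The Gapdh controls, for a glycolytic enzyme used as a second reference, had log2 ratios between -0.10 and 0.04.

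**Figure D2:**
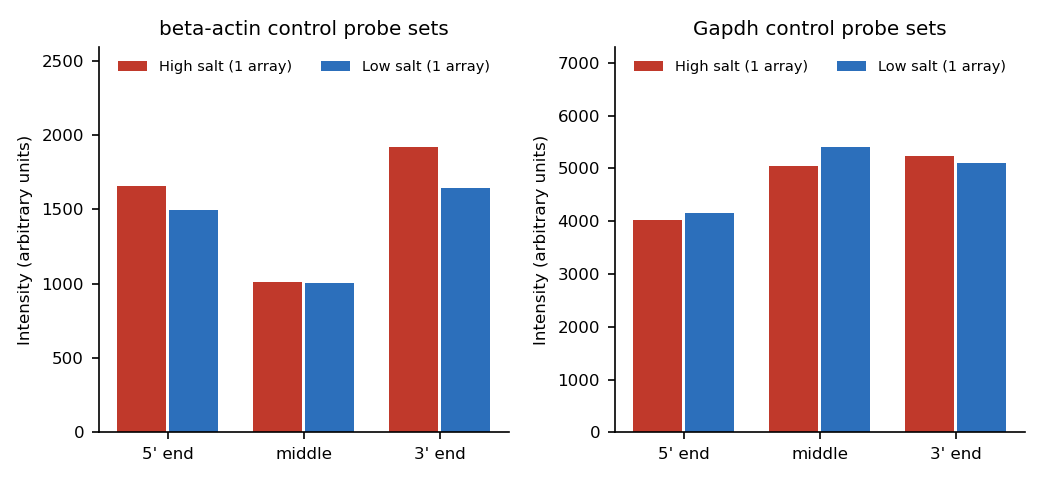
Intensity of the control probe sets at the 5′ end, middle and 3′ end of beta-actin (left) and Gapdh (right), with the high-salt array left of the low-salt array in each pair and 1 array per bar. The beta-actin bars of the 2 arrays differ most at the 3′ end, at 1919.4 on high salt and 1646.4 on low salt.

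Among the smooth muscle genes, only alpha smooth muscle actin reached the noise floor. Acta2, the actin of vessel walls and myofibroblasts, read 378.5 on high salt and 314.6 on low salt in X06801cds_f_at (1.20-fold). In rc_AA900769_s_at it read 315.1 on high salt and 258.6 on low salt (1.22-fold). The names of both probe sets mark sequence that may be shared with other genes. Whether other actins add to these Acta2 readings was not tested. The log2 ratios of 0.27 and 0.29 were close to the SD between probe sets, and were 0.04 and 0.06 when scaled to the reference genes. The third Acta2 probe set, X06801cds_i_at, was dim at 13.8 and 31.0 on high and on low salt, and thus ran the other way within the noise.

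Another 4 probe sets carry the symbols of both Acta2 and Actc1, the cardiac alpha-actin of the sarcomere. X80130cds_i_at read 8962.4 on high salt and 9328.7 on low salt, X80130cds_f_at 5802.5 and 5881.8, and rc_AI104567_g_at 3976.8 and 3795.4. Their log2 ratios lay between -0.06 and 0.07. The fourth, rc_AI104567_at, stayed just under the floor at 118.4 on high salt and 104.8 on low salt. A probe set annotated to Actc1 alone gave 8364.9 on high salt and 7848.9 on low salt. The skeletal alpha-actin Acta1, a sarcomeric isoform re-expressed in hypertrophy, read 3181.4 on high salt and 2096.2 on low salt, 1.52-fold. Actg2, the enteric smooth muscle actin, was dim at 17.3 and 11.4.

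Tagln, which encodes transgelin, an actin-bundling protein of smooth muscle, was not measurable on these arrays. M83107_at read 30.5 on high salt and 21.2 on low salt, and M83107_g_at read -76.0 and -90.2. Tpm2, the beta-tropomyosin that winds along actin filaments, read 34.5 on high salt and 10.3 on low salt in its 1 probe set, also under the floor. At a lower floor of 10.9 it would pass 2-fold, as 14.6% of all genes do there. The smooth muscle marker list was dim as a whole: none of 4 measured markers reached the floor, their summed intensity was 32.3 on high salt and 68.0 on low salt, and Myh11 and Cnn1 were below 0 on at least 1 array. Other tropomyosins were readable. Tpm1, the main cardiac tropomyosin, read 5757.0 on high salt and 6140.5 on low salt in its brightest probe set, Tpm4 read 208.5 against 215.1, and Tpm3 239.4 against 146.1 (1.64-fold). The remaining 4 Tpm3 probe sets were all under the floor.

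The thymosins, small peptides that sequester actin monomers, lay within 1.5-fold. Tmsb4x, the abundant thymosin beta-4, read 1562.9 on high salt and 1896.0 on low salt, a log2 ratio of -0.28 and the lowest of the 15 probe sets. This ratio was slightly larger in size than the SD of 0.22 and was -0.51 when scaled to the reference genes. Tmsb10, measured together with a pseudogene by M58404_at, read 362.3 on high salt and 365.3 on low salt.

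**Figure D3:**
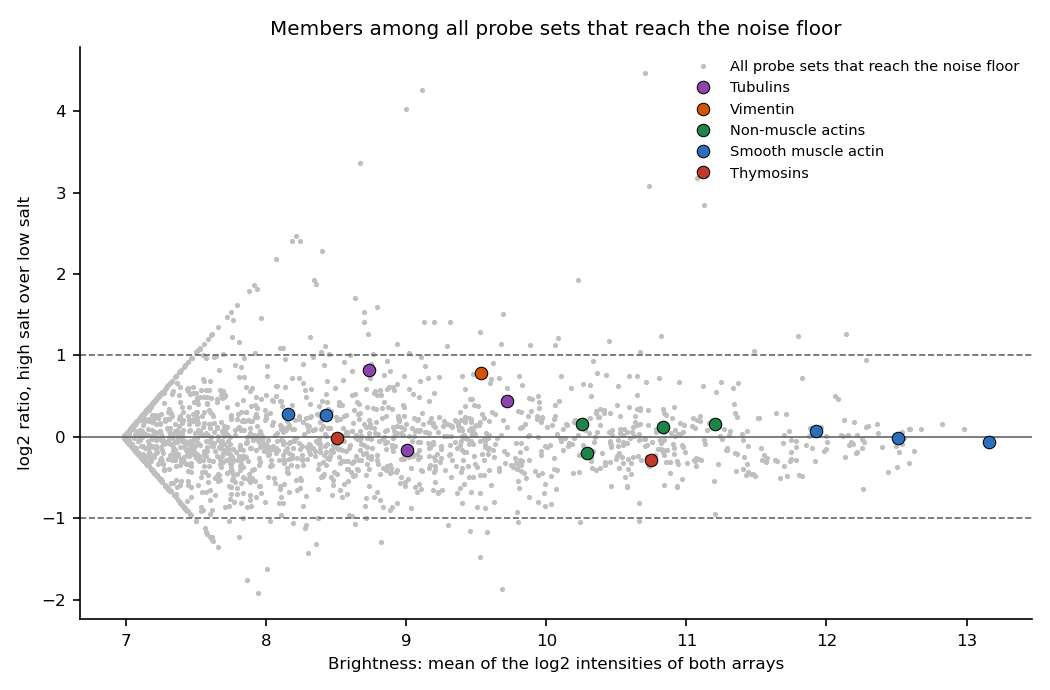
The log2 ratio of the high-salt over the low-salt intensity (vertical) against brightness, the mean log2 intensity of both arrays (horizontal), for all 1955 probe sets that reach the noise floor (grey) and the 15 member probe sets by class (coloured), with dashed lines at 2-fold. All 15 lie between the dashed lines, and the highest are an alpha-tubulin probe set at 0.82 and vimentin at 0.79.

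Proteins that work with these filaments were read from lists of related genes. Among other tubulins and microtubule proteins, 18 of 42 listed genes had a probe set and 4 reached the floor: none was 2-fold higher, 1 (Tuba4a) was 2-fold lower where 1.89% of all genes were, and the median log2 ratio was 0.27, beside -0.04 over all genes. Map1a, a microtubule-associated protein, read 180.3 on high salt and 74.7 on low salt, a bound of at least 1.43-fold with the second value raised to the floor, and its other probe set lay below 0 on both arrays. Dctn1, a subunit of the dynein activator dynactin, read 205.0 against 184.0. Among other intermediate filament genes and their partners, 4 of 15 measured reached the floor and none passed 2-fold. All 4 ratios were above 1, with a median of 0.12: Des, the muscle-specific desmin, read 2870.1 on high salt against 1961.6 on low salt (1.46-fold), the chaperone Cryab 5545.2 against 4981.0, the nuclear lamin gene Lmna 336.0 against 315.4 and the linker Plec 618.9 against 615.2. Only Des had a log2 ratio (0.55) above the SD between probe sets of 0.22, and those of Cryab, Lmna and Plec were smaller than it.

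Actin-binding and actin turnover proteins had 44 of 75 listed genes on the array and 20 that reached the floor. Of these, 2 were at least 2-fold higher on high salt (3.54% of all genes), none was 2-fold lower (1.89%), and the median log2 ratio was 0.08. Dbn1, which encodes the filament-binding protein drebrin, read 330.8 on high salt and 141.2 on low salt (2.34-fold), although its second probe set was dim. Capg, a filament-capping protein of the gelsolin family, read 399.7 on high salt and 188.3 on low salt (2.12-fold). Cap2, a striated muscle protein that helps recycle actin monomers, was 1.84-fold higher at 348.4 against 189.8. Ezr, the membrane linker ezrin, was 1.81-fold higher at 304.3 against 168.4. Myl9, a regulatory myosin light chain of smooth muscle and non-muscle cells, read 214.2 on high salt and 141.6 on low salt. The monomer-binding protein profilin, Pfn1, read 692.1 on high salt and 736.2 on low salt.

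**Figure D4:**
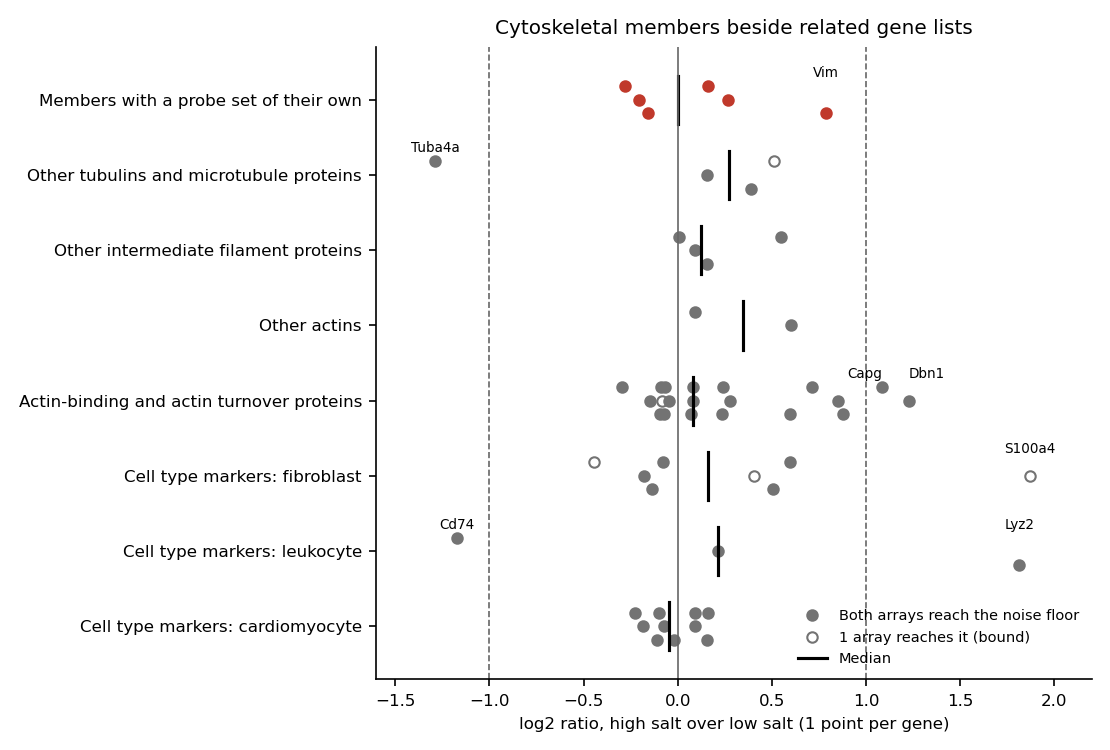
The log2 ratio of the high-salt over the low-salt intensity for genes that reach the noise floor, 1 point per gene at its brightest probe set, for the members and for related gene lists and cell type markers; open points are bounds and black bars are medians. Vimentin at 0.79 is the highest of the 6 members, and Dbn1, Capg, S100a4, Lyz2, Tuba4a and Cd74 lie beyond the dashed 2-fold lines.

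Promoters are shown for Vim, for Tuba1a, which was read only by probe sets shared with other alpha-tubulin genes, and for the actins Acta2, Actg1 and Acta1. Transcription of actin genes is known to be driven by serum response factor through the CArG box. RefSeq promoter sequences (build GRCr8) were found for 8 of the 10 genes, and not for Actb and Tagln. The 250 bases before each start were searched, and the 150 nearest the start are printed. In the actins the capitals mark CArG boxes, and in Vim and Tuba1a they mark TATAA on the printed strand and CCAAT on either strand. The sequences are those of Vim (chr17:81577111-81577260, plus strand), Tuba1a (chr7:131995820-131995969, minus strand), Acta2 (chr1:241172504-241172653, minus strand), Actg1 (chr10:106120952-106121101, minus strand) and Acta1 (chr19:68784195-68784344, minus strand), each read 5′ to 3′.
Vim: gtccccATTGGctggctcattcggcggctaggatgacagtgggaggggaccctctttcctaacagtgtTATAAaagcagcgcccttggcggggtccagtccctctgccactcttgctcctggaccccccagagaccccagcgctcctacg
Tuba1a: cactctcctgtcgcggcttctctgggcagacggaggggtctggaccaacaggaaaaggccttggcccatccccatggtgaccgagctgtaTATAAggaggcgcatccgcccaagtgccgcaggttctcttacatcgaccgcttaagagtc
Acta2: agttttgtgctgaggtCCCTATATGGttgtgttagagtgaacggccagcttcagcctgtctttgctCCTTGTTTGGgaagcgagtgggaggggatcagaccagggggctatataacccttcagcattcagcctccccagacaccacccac
Actg1: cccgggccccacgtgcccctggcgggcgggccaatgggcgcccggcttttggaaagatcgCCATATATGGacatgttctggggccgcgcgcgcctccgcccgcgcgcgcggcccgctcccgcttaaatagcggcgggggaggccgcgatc
Acta1: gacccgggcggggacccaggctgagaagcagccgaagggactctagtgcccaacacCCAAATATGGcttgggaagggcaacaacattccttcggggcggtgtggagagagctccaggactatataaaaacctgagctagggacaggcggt

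A CArG box has 10 bases and a core of 6 that are all A or T, and it has the same form on both strands. An exact box was present in 1 of the 8 member promoters, that of Actg1 at position -90, and in 501 of all 33469 promoters of the table. With 1 other base allowed in the core, boxes were present in 3 of the 8 (Acta2, Actg1 and Tubb5) and in 8.08% of all promoters. Acta2 had a pair of such boxes, at positions -134 and -84. Acta1, which is outside the 10 genes, had an exact box at -94. TATAA on either strand was found in 4 of the 8 (24.0% of all promoters) and CCAAT on either strand also in 4 (34.0%). In Vim the TATAA began at position -82 and the CCAAT, which lies on the opposite strand, at -144. In Tuba1a the TATAA began at -60 and the CCAAT at -158.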

How the data were processed

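Heart RNA of 2 samples, 1 per diet, was read on 1-colour arrays with Affymetrix rat probe set names. A single intensity per probe set and array was deposited by the authors, already scaled, with 8799 probe sets of which 59 are controls. Neither software nor detection calls are given in the sources used here. Samples were grouped by source name.

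Intensities were used as deposited. Both values were raised to the noise floor (126.4, the 95th percentile of the size of values below 0) before the high-salt over low-salt log2 ratio was computed. A ratio with 1 value under the floor is a bound. Gene symbols came from the platform annotation (2016): 7006 had 1 symbol, 308 several and 1426 none. Among probe sets with 1 symbol, a gene was taken at its brightest. Named genes were all members, every list gene past 2-fold and up to 4 others per list with the largest ratios; Tpm1, Tpm4, Pfn1, Pdgfra, Dcn, Col3a1 and the probe sets with several symbols that hold no member were added after their values were seen. A further gene list is not reported here. The members and lists were chosen with earlier results of these data known. No test or p-value was computed, and the number of arrays limits the precision. The ratio step was tested on simulated arrays. Alternatives covered floors, quantile, loess (span 0.4) and reference-gene scaling, probe set rules and fold thresholds. Tools were matplotlib 3.10.9, statsmodels 0.14.6, scipy 1.17.1, pandas 2.3.3 and numpy 2.4.6 under Python 3.11.15.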

Additional observations from a re-analysis of the deposited data

How the results depend on the processing

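No member passed 2-fold under quantile or loess scaling, each of which could have moved a ratio past it. None passed with reference-gene scaling, the noise floor at the 99th percentile, log2(value + noise floor), the 3-fold threshold or without probe sets that may share sequence. These latter results were fixed in advance and test nothing further. Reference-gene scaling lowers every member ratio by 0.2271, which cannot take log2 ratios between -0.28 and 0.82 past 2-fold. A higher floor or an added constant can only shrink the 15 ratios, 3-fold is stricter than 2-fold, and the last setting keeps fewer of the same ratios. With the floor lowered to 10.9, 1 member gene (Tpm2) and 2 member probe sets (L00382cds_at for Tpm2, higher, and X06801cds_i_at for Acta2, lower) passed, where 14.6% of all genes did. All readings behind these lay under the noise floor. At 1.5-fold, 2 member probe sets passed, both higher on high salt, where 8.75% of all probe sets were as much higher. By gene, 1 member passed at 1.5-fold, also higher. Scaling to 9 reference genes, most of them ribosomal, moved the median of all genes to -0.23, the median of the member genes to -0.23 (main value 0.0014) and that of the member probe sets to -0.10 (main value 0.13). It left 5 of 15 member probe sets with a ratio above 1, against 9 of 15 as deposited and 12 of 15 after loess. Of all probe sets that reached the floor, 24.2%, 45.6% and 49.3% had a ratio above 1 under these settings in turn. Without probe sets that may share sequence the member probe set median was -0.11, over 4 probe sets. Of 20 actin-binding genes, 6 passed at 1.5-fold, 0 at 3-fold, 0 with log2(value + noise floor) and 1 with reference-gene scaling, against 2 as reported. With the 99th percentile floor 0 of 12 passed, and with the lower floor 5 of 35, where 14.6% of all genes did. Of the microtubule genes, 0 of 4 passed at 3-fold and 2 of 14 with the lower floor (again beside 14.6%), against 1 of 4. At 1.5-fold a share was computed for probe sets only, so the gene counts at that threshold have no background. For the 3-fold threshold and the alternatives other than the lower floor, no share past the threshold was computed, so those counts have none either. Apart from the shifts due to fewer genes or a scaling constant, the cause was not tested. Over single member probe sets, 79 of 94 alternative log2 ratios stayed within the SD of 0.22 of the reported value, and the other 15 all came from reference-gene scaling. Both outcomes were partly fixed in advance. The lower floor and the removal of probe sets that may share sequence leave these ratios unchanged, and the 99th percentile floor changed only rc_AA900769_s_at. Reference-gene scaling subtracts a constant 0.2271 from every such ratio, which exceeds the SD (0.2226). No paired analysis was possible because each diet has 1 array, and no array could be left out.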

Other observations

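A pair of motor light chain groups measured by probe sets with several symbols stood out after the values were seen. For Myl6, the essential light chain of non-muscle and smooth muscle myosin, and its relatives Myl6b and Myl6l, S77858_s_at read 742.0 on high salt and 363.6 on low salt (2.04-fold). In the same group rc_AA894200_g_at read 1789.4 against 1053.0 (1.70-fold) and rc_AA875523_s_at 3322.9 against 2099.0 (1.58-fold). The dimmer rc_AA875523_i_at, for Myl6b and Myl6, read 201.6 against 162.7 (1.24-fold). The probe set for Myl6 alone, rc_AA894200_at, read 211.7 against 259.5. The probe set shared by the dynein light chain gene Dynll1 and Dynll1l1 read 496.1 on high salt and 245.8 on low salt (2.02-fold). Of all probe sets that reached the floor, 5.22% differed by 2-fold or more in either direction. Of the 3 measured red blood cell markers, all passed 2-fold, higher on high salt, at their brightest probe set (3.54% of all genes were as much higher), with a summed intensity of 7944.9 against 3134.8. For Alas2 and Slc4a1 the low-salt value lay under the noise floor, so their ratios are bounds. For Slc4a1, the anion exchanger of red blood cells, a second probe set above the floor read 168.3 on high salt and 174.8 on low salt. The part of red blood cells in these readings was not tested.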
